A study of Solanum lycopersicum with 18 samples.

Results

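The genes described here are 10 genes of sugar and starch metabolism, out of 35802 gene identifiers in a table of RNA levels in tomato fruit (Solanum lycopersicum). They were chosen by identifier and role, with earlier results of these data known: the invertase genes TIV1 (Solyc03g083910) and LIN5 (Solyc09g010080), the invertase inhibitor gene INVINH1 (Solyc12g099200), the sucrose synthase genes SUS1 (Solyc12g009300) and SUS3 (Solyc07g042550), the sucrose phosphate synthase gene SPS (Solyc07g007790), 3 genes for subunits of ADP-glucose pyrophosphorylase (AGPase; Solyc07g056140, Solyc07g019440 and Solyc01g079790) and the granule-bound starch synthase gene GBSS (Solyc08g083320). Fruit RNA was sequenced from 3 genotypes: Ailsa Craig as wild type, the rin mutant LA3754 in that background, and TF18, a line of Ailsa Craig with suppressed FUL1 and FUL2. The products of these genes and of RIN are transcription factors that act in ripening. The ages were 35 and 45 DAP, which the labels call green and pink in every genotype. Each of the 6 groups of genotype and age had 3 libraries, which makes 18. The sources used here do not give the construct or promoter behind the suppression in TF18, nor which plants the 3 libraries of a group were made from. The p-values therefore measure only how libraries differ, which may be technical.

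A tomato fruit imports sucrose. Invertases split it into glucose and fructose, in the vacuole (the vacuolar enzyme is TIV1) or outside the cell (LIN5 is a cell wall invertase), and INVINH1 is a protein that blocks cell wall invertase. Sucrose synthase cleaves sucrose into fructose and a nucleotide sugar that can be used for starch, and sucrose phosphate synthase works on the way back to sucrose. Green fruit stores starch transiently: AGPase, an enzyme of large and small subunits, makes ADP-glucose, which starch synthases, GBSS among them, add to starch. Starch is then broken down as the fruit ripens and hexoses accumulate.

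Levels are RPKM, reads scaled for gene length and library total, so they can be set side by side between genes. Library totals and reads per gene were solved from the RPKM values. The totals ran from 5740900 to 17334324 reads. The 10 genes had from 3 to 43778 reads per library, and the count of 3 belonged to Solyc01g079790 in wild-type replicate 2 of 45 DAP. Within groups the libraries correlated at 0.924 to 0.97 across genes on the log2 scale. RNA came from sliced fruit, so a smaller number of cells using a gene and less RNA per cell cannot be told apart. The table holds identifiers without names, so RIN, FUL1 and FUL2 themselves were not checked here. A gene is said to have risen or fallen, or to be higher or lower, where limma gave a Benjamini-Hochberg adjusted p under 0.05 over 20658 genes and the log2 fold change reached 1 or -1. All 10 genes passed the filter on low values. Fold changes given as log2 were computed on log2(RPKM + 1), which understates changes of low genes.

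In the wild type the ripening interval separated the 10 genes into 3 kinds. TIV1 rose 23.9-fold in mean RPKM. SUS1, GBSS and the AGPase genes Solyc07g056140 and Solyc01g079790 fell 13.7- to 37.8-fold. The other 5 genes passed the test in neither direction. In rin TIV1 did not pass the test, SUS1 fell 23.5-fold, and Solyc07g056140 and GBSS fell 2.71-fold and 2.16-fold. In TF18 none of the 10 passed the test over the same interval. Of all genes tested, 7.54% rose and 34.2% fell in the wild type, so the share of the 10 that fell there was near the background. In rin 7.49% of all genes rose and 8.84% fell, and in TF18 0.566% rose and 0.145% fell.

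**Figure D1:**
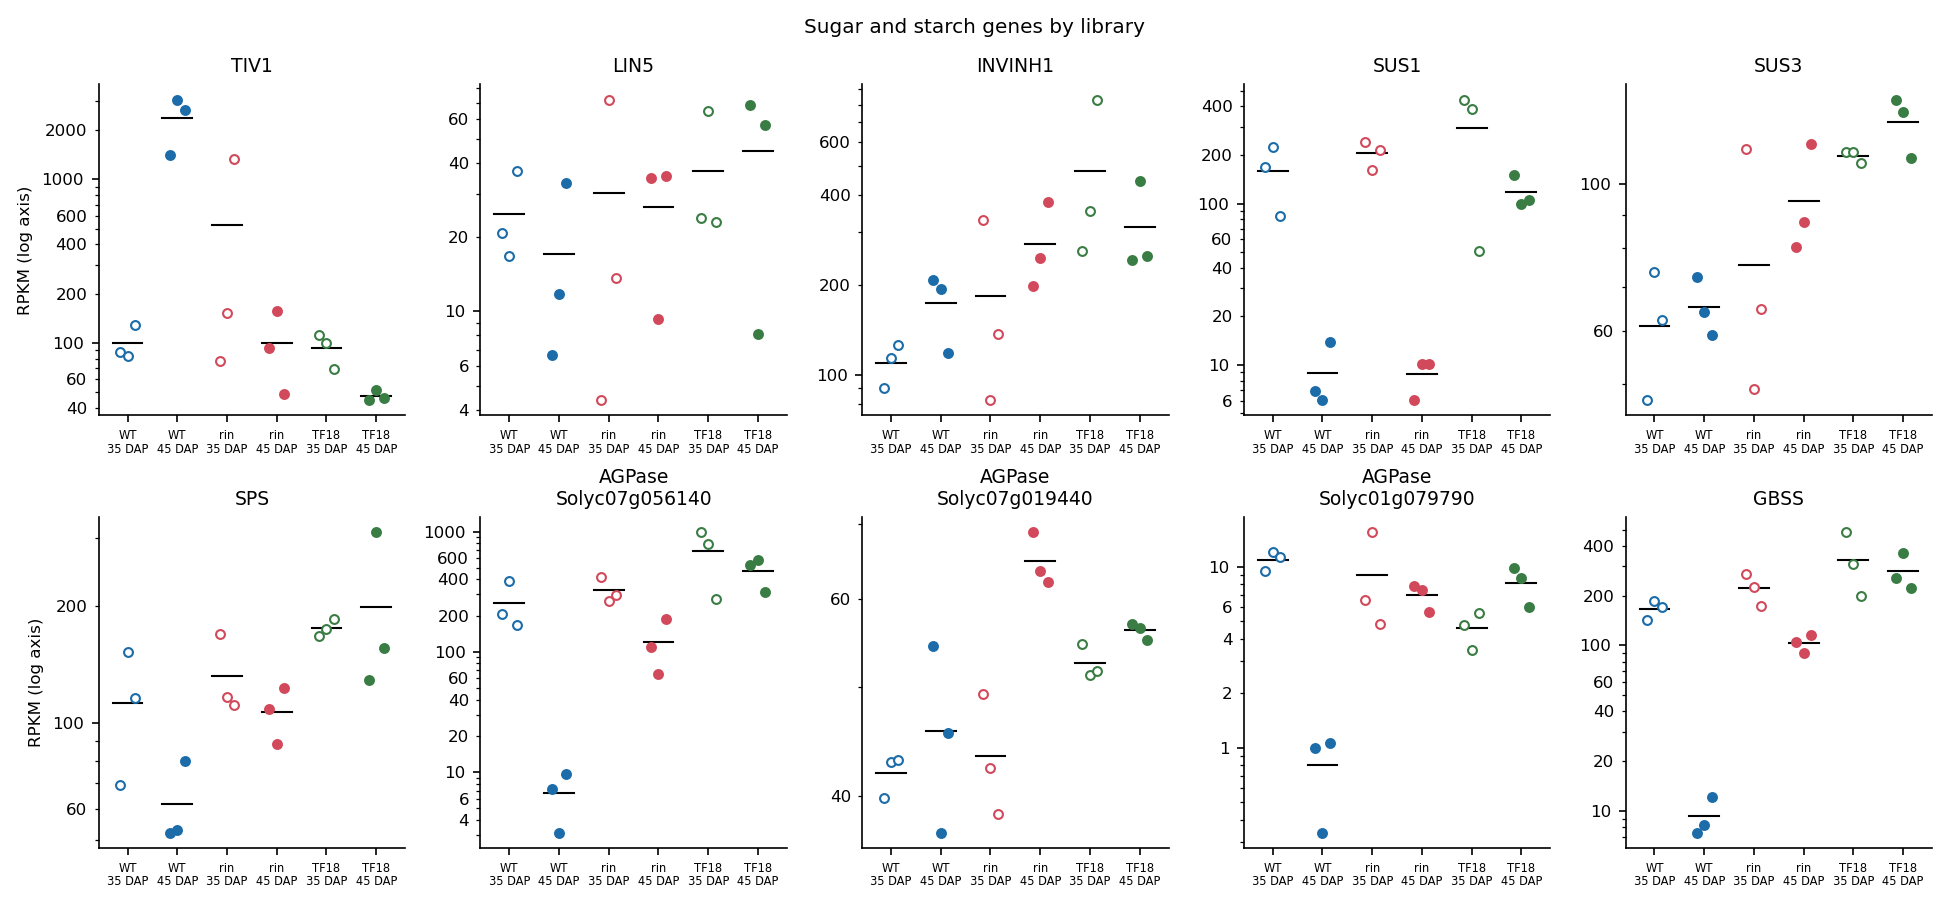
Level of each of the 10 genes in RPKM (log axis, each panel with its own range) in the 18 libraries, by genotype and age. Points are libraries, open at 35 DAP and filled at 45 DAP, and black lines are the means of 3. TIV1 stands at 1415 to 3076 RPKM in the wild type at 45 DAP and reaches 1339 RPKM in 1 rin library of 35 DAP, while Solyc07g056140, Solyc01g079790 and GBSS are lowest in the wild type at 45 DAP and SUS1 is as low in rin at 45 DAP.

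TIV1, the vacuolar invertase gene, had 88.5, 82.7 and 128 RPKM in the wild type at 35 DAP. At 45 DAP it had 1415, 3076 and 2664 RPKM and ranked from 38 to 83 among all genes of these libraries. All 3 pink libraries lay above the green ones, with means of 2385 ± 865 (SD, n = 3) and 99.7 ± 24.7 RPKM (SD, n = 3). The rise was 4.52 on the log2 scale (SE 0.73, limma adjusted p = 8.8e-05). In TF18 TIV1 had 111, 100.2 and 69.7 RPKM at 35 DAP and 44.7, 51.8 and 45.7 RPKM at 45 DAP. These groups did not overlap, but the difference of -0.94 on the log2 scale (SE 0.73, limma adjusted p = 0.83) did not pass the test. In rin at 45 DAP TIV1 had 92.9, 156 and 49.1 RPKM, which overlapped the green wild type. At 45 DAP it was thus lower than in the wild type in rin (log2 fold change -4.65, SE 0.73, limma adjusted p = 0.00015) and in TF18 (-5.55, SE 0.73, limma adjusted p = 1.1e-05). Between TF18 and rin at 45 DAP the difference was -0.90 (95% interval -2.45 to 0.64, limma adjusted p = 0.37), and with library weights TIV1 was lower in TF18 (log2 fold change -1.50, limma adjusted p = 0.047).

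One rin library of 35 DAP went apart from its group in TIV1. Replicates 1 and 2 had 77.3 and 152 RPKM, and replicate 3 had 1339 RPKM from 43778 reads, rank 65 in that library and close to the lowest pink wild-type library. None of the other 9 genes stood above both other replicates in replicate 3. SUS1, at 214 RPKM, lay between them, and GBSS, at 174 RPKM, was the lowest of its group. The 200 genes with the largest rises in the wild type had a mean log2 level of 2.82 in replicate 3, against 3.14 and 2.46 in replicates 1 and 2 and 7.77 to 8.03 in the pink wild type. TIV1 in rin at 35 DAP differed from the wild type by 1.35 on the log2 scale (95% interval -0.19 to 2.90, limma adjusted p = 1), which did not pass the test, and by 0.15 (limma adjusted p = 1) without replicate 3. Its change with age in rin, -1.48 (SE 0.73, limma adjusted p = 0.14), was -0.28 (limma adjusted p = 0.7) without that library. Without rin replicate 1 of 35 DAP it was -2.32 (limma adjusted p = 0.023). What sets replicate 3 apart was not tested.

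The gene whose profile was most like that of TIV1 over the 18 libraries was Solyc03g083920, whose identifier follows that of TIV1 directly. Its Pearson r with TIV1 was 0.925 on log2(RPKM + 1), and 0.685 within groups. It was picked among 13858 genes with a mean of at least 10 RPKM in a group. It had 199, 31 and 403 reads in the pink wild-type libraries and 127 reads in rin replicate 3 of 35 DAP, the library high in TIV1. It had 0 reads in each of the other 14 libraries. As the gene was picked by its likeness over these same libraries, these reads are not a separate observation. The files give the gene no name. Whether reads of one gene were counted for the other was not tested.

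LIN5 and INVINH1, the cell wall invertase gene and the gene of its inhibitor, varied widely between replicates. LIN5 had 20.7, 16.8 and 37.2 RPKM in the green wild type and 6.64, 11.8 and 33.0 RPKM in the pink wild type. In rin it had 4.37, 72.1 and 13.7 RPKM at 35 DAP and 34.7, 9.34 and 35.3 RPKM at 45 DAP. In TF18 it had 23.8, 64.8 and 23.0 RPKM at 35 DAP and 68.8, 8.11 and 57.0 RPKM at 45 DAP. Replicates of one group differed up to 16.5-fold, every pair of groups overlapped, and LIN5 passed the test in none of the 11 comparisons. With this spread the test says little: the 95% interval of the wild-type change was -2.68 to 1.25 on the log2 scale, and the change of -0.72 was -0.14 with TMM-type scaling.

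INVINH1 had 90.0, 114 and 126 RPKM in the green wild type and 260, 353 and 833 RPKM in TF18 at 35 DAP. The 3 TF18 libraries lay above the 3 of the wild type, and INVINH1 was higher in TF18 by 1.95 on the log2 scale (SE 0.48, limma adjusted p = 0.019). The call rested on single libraries: the adjusted p was 0.078 without wild-type replicate 1, 0.051 without TF18 replicate 2 and 0.079 without TF18 replicate 3, with log2 fold changes of 1.82, 2.09 and 1.47. At 45 DAP it had 208, 193 and 118 RPKM in the wild type, 199, 245 and 379 RPKM in rin, and 242, 445 and 250.0 RPKM in TF18. The TF18 libraries again lay above those of the wild type, but the difference of 0.83 (SE 0.48, limma adjusted p = 0.14) did not pass, and with TMM-type scaling it was -0.01. With that scaling INVINH1 rose with age in the wild type by 1.23 (limma adjusted p = 0.036), and its change in TF18 minus that in the wild type was -1.83 (limma adjusted p = 0.038), in place of 0.62 (limma adjusted p = 0.27) and -1.12 (limma adjusted p = 0.18). In rin at 35 DAP it had 329, 82.2 and 137 RPKM, a range that held the whole green wild type.

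The inhibitor gene had a higher level than LIN5 in all 18 libraries. The ratio of LIN5 to INVINH1 ran from 0.0133 in rin replicate 1 of 35 DAP to 0.878 in rin replicate 2 of the same age. In the wild type it was 0.225 ± 0.0741 (SD, n = 3) at 35 DAP and 0.124 ± 0.135 (SD, n = 3) at 45 DAP, and these groups overlapped. Deviations from the group means of the 2 genes went in opposite directions, with a Pearson r of -0.64 over the 18 libraries. INVINH1 and SUS3 deviated together (r = 0.70), and LIN5 went against SUS3 as well (r = -0.52). These are descriptions of 45 pairs of the 10 genes, whose points share library and depth.

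SUS1 fell in rin as it did in the wild type, and at 45 DAP it was higher in TF18 than in both. It had 168, 225 and 83.2 RPKM in the green wild type and 6.88, 6.05 and 13.9 RPKM in the pink wild type. The groups did not overlap, and SUS1 fell by 3.97 on the log2 scale (SE 0.62, limma adjusted p = 6.6e-05). In rin it had 240, 162 and 214 RPKM at 35 DAP and 6.05, 10.1 and 10.1 RPKM at 45 DAP. In rin it fell by 4.42 (SE 0.62, limma adjusted p = 0.00015), and the change in rin minus that in the wild type was -0.44 (95% interval -2.30 to 1.42, limma adjusted p = 0.73). The levels at 45 DAP, 8.75 ± 2.34 (SD, n = 3) in rin and 8.94 ± 4.31 RPKM (SD, n = 3) in the wild type, overlapped, with a log2 difference of 0.02 (95% interval -1.29 to 1.34, limma adjusted p = 0.98), whose sign changed with the scaling.

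In TF18 SUS1 had 441, 387 and 50.5 RPKM at 35 DAP and 149, 99.6 and 105 RPKM at 45 DAP. All 3 libraries of 45 DAP lay above every rin and wild-type library of that age. SUS1 was higher in TF18 than in wild-type fruit by 3.64 (SE 0.62, limma adjusted p = 0.00012) and than in rin by 3.62 (SE 0.62, limma adjusted p = 0.00062). Its change with age in TF18, -0.82 (SE 0.62, limma adjusted p = 0.82), did not pass the test and differed from that of the wild type by 3.15 (SE 0.87, limma adjusted p = 0.0085). Replicate 3 of 35 DAP was low. Without it SUS1 fell in TF18 by 1.82 (limma adjusted p = 0.044), and it was higher in TF18 than in wild-type fruit at 35 DAP by 1.49 (limma adjusted p = 0.038) in place of 0.49 (limma adjusted p = 0.68). With TMM-type scaling the difference at 35 DAP was 0.35 (limma adjusted p = 0.84), and single omissions gave -0.06 to 1.49.

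SUS3, the other sucrose synthase gene, ranged from 47.2 to 134 RPKM over the 18 libraries. It had 47.2, 73.8 and 62.4 RPKM in the green and 72.4, 64.0 and 59.2 RPKM in the pink wild type, a difference of 0.11 (95% interval -0.41 to 0.63) that was 0.71 (limma adjusted p = 0.023) with TMM-type scaling. In TF18 it had 112, 112 and 108 RPKM at 35 DAP and 134, 129 and 110 RPKM at 45 DAP. The TF18 libraries lay above the wild type at both ages, by 0.87 (SE 0.24, limma adjusted p = 0.036) and 0.92 (SE 0.24, limma adjusted p = 0.0039), short of the fold minimum. With TMM-type scaling these differences were 0.73 (limma adjusted p = 0.095) and 0.09 (limma adjusted p = 0.79), so the one at 45 DAP depends on the scaling. Without wild-type replicate 2 of 35 DAP or TF18 replicate 3 of 45 DAP these were 1.01 each (limma adjusted p = 0.042 and 0.0063). The rin means lay between, at 75.6 ± 33.5 (SD, n = 3) and 94.3 ± 18.3 RPKM (SD, n = 3).

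SUS1 made up 70.2% ± 11.4 (SD, n = 3) of the summed RPKM of SUS1 and SUS3 in the green wild type and 12.1% ± 5.97 (SD, n = 3) in the pink. The rin libraries had 73.8% ± 5.14 (SD, n = 3) and later 8.47% ± 1.68 (SD, n = 3). In TF18 it was 79.8%, 77.6% and 31.9% at 35 DAP and 52.7%, 43.6% and 48.8% at 45 DAP, so the TF18 groups overlapped where those of the wild type and of rin did not.

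SPS, the gene of sucrose phosphate synthase, had 69.3, 153 and 116 RPKM in the green wild type and 52.1, 53.1 and 80.0 RPKM in the pink. Its change, -0.81 (SE 0.32, limma adjusted p = 0.036), was short of the fold minimum and passed it without wild-type replicate 1 of 35 DAP (-1.12, limma adjusted p = 0.0083) or replicate 3 of 45 DAP (-1.01, limma adjusted p = 0.022). Single omissions gave -1.12 to -0.56. With TMM-type scaling this wild-type change was -0.21 (limma adjusted p = 0.59), so it depends on the scaling. In TF18 SPS had 168, 175 and 186 RPKM at 35 DAP and 130, 311 and 157 RPKM at 45 DAP. At 35 DAP these lay above the wild type by 0.71 (SE 0.32, limma adjusted p = 0.17), which did not pass. At 45 DAP all TF18 libraries exceeded the wild type and SPS was higher by 1.60 (SE 0.32, limma adjusted p = 0.00045). With TMM-type scaling of the libraries this was 0.76 (limma adjusted p = 0.052), so the call depends on the scaling. In rin SPS had 133 ± 32.2 (SD, n = 3) and 107 ± 17.5 RPKM (SD, n = 3) at the 2 ages and was not called against the wild type at either.

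The 3 AGPase subunit genes behaved differently from each other. Solyc07g056140 had 206, 386 and 168 RPKM in the green wild type and 7.27, 3.11 and 9.71 RPKM in the pink. It fell by 5.06 on the log2 scale (SE 0.50, limma adjusted p = 9.7e-07), which ranked 127 from the lowest of the 20658 genes. In rin it had 418, 267 and 295 RPKM at 35 DAP and 110, 65.8 and 187 RPKM at 45 DAP. These groups did not overlap either, and the gene fell by 1.53 (SE 0.50, limma adjusted p = 0.032). That call was lost when any of the 3 rin libraries of 35 DAP or replicate 1 or 2 of 45 DAP was left out, with changes of -1.66 to -1.16 and adjusted p of 0.051 to 0.14. In TF18 it had 988, 789 and 277 RPKM at 35 DAP and 524, 580 and 316 RPKM at 45 DAP, which overlap.

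At 45 DAP the order of Solyc07g056140 was therefore TF18, rin and wild type, with no overlap between neighbours. Its means were 473 ± 139 (SD, n = 3), 121 ± 61.4 (SD, n = 3) and 6.70 ± 3.34 RPKM (SD, n = 3). It was higher in rin than in wild-type fruit by 3.96 (SE 0.50, limma adjusted p = 2.3e-05), in TF18 than in the wild type by 6.01 (SE 0.50, limma adjusted p = 1.6e-07) and in TF18 than in rin by 2.04 (SE 0.50, limma adjusted p = 0.007). The difference between TF18 and the wild type ranked 35 from the highest of the 20658 genes. At 35 DAP the means were 684 ± 367 (SD, n = 3) in TF18, 327 ± 80.3 (SD, n = 3) in rin and 253 ± 116 RPKM (SD, n = 3) in the wild type. They overlapped, and no pair passed the test. Without TF18 replicate 3 the gene was higher in TF18 than in wild-type fruit at that age by 1.89 (limma adjusted p = 0.031) in place of 1.33 (limma adjusted p = 0.11). With TMM-type scaling the difference was 1.2 (limma adjusted p = 0.18), and single omissions gave 0.97 to 1.89.

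Solyc01g079790, a low AGPase gene, had 9.43, 12 and 11.3 RPKM in the green wild type and 0.989, 0.338 and 1.06 RPKM in the pink, from 834 and 32 reads in all. It fell by 2.75 (SE 0.32, limma adjusted p = 5.1e-06). In rin it had 6.51, 15.5 and 4.85 RPKM at 35 DAP and 7.78, 7.41 and 5.65 RPKM at 45 DAP. In TF18 it had 4.78, 3.45 and 5.53 RPKM at 35 DAP and 9.87, 8.64 and 5.99 RPKM at 45 DAP. It was higher than in the wild type at 45 DAP in rin by 2.16 (SE 0.32, limma adjusted p = 0.0001) and in TF18 by 2.35 (SE 0.32, limma adjusted p = 1.7e-05), and TF18 and rin overlapped. At 35 DAP it was lower in TF18 than in wild-type fruit by 1.10 (log2 fold change -1.10, SE 0.32, limma adjusted p = 0.042). With the replicate number as a block the adjusted p was 0.061, and leaving out single libraries gave log2 fold changes of -1.23 to -0.95, with the call lost in 9 of 18 cases, each wild-type and TF18 library of 35 DAP among them (adjusted p up to 0.17).

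Solyc07g019440 was the AGPase gene with the narrowest range, from 37.0 to 68.9 RPKM over the 18 libraries. In the wild type it had 41.9 ± 1.83 (SD, n = 3) at 35 DAP and 45.7 ± 8.71 RPKM (SD, n = 3) at 45 DAP, a difference of 0.11 (95% interval -0.18 to 0.39) that was 0.71 (limma adjusted p = 4.8e-05) with TMM-type scaling. In rin it had 49.3, 42.4 and 38.5 RPKM at 35 DAP and 68.9, 63.5 and 62.2 RPKM at 45 DAP. The rin groups did not overlap, but the change of 0.58 (SE 0.14, limma adjusted p = 0.0053) was short of the fold minimum. The difference between rin and the wild type at 45 DAP, 0.51 (SE 0.14, limma adjusted p = 0.0062), was -0.09 with TMM-type scaling, so its sign depends on the scaling. TF18 had 52.6 ± 1.81 (SD, n = 3) and 56.3 ± 0.953 RPKM (SD, n = 3).

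Solyc07g056140 held 80.7%, 87.6% and 75.6% of the summed RPKM of the 3 genes in the green wild type and 11.6%, 7.69% and 17.3% in the pink. There Solyc07g019440 held 86.4% ± 5.31 (SD, n = 3), and the sum of the 3 was 53.2 ± 11.4 RPKM (SD, n = 3), against 306 ± 117 RPKM (SD, n = 3) in the green wild type. In rin at 45 DAP Solyc07g056140 held 58.8%, 48.1% and 73.4%, below every rin library of 35 DAP. In TF18 it held 90.2% ± 6.36 (SD, n = 3) at 35 DAP and 87.5% ± 3.23 (SD, n = 3) at 45 DAP, a difference within the spread. Shares within a library do not move with its scaling.

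**Figure D2:**
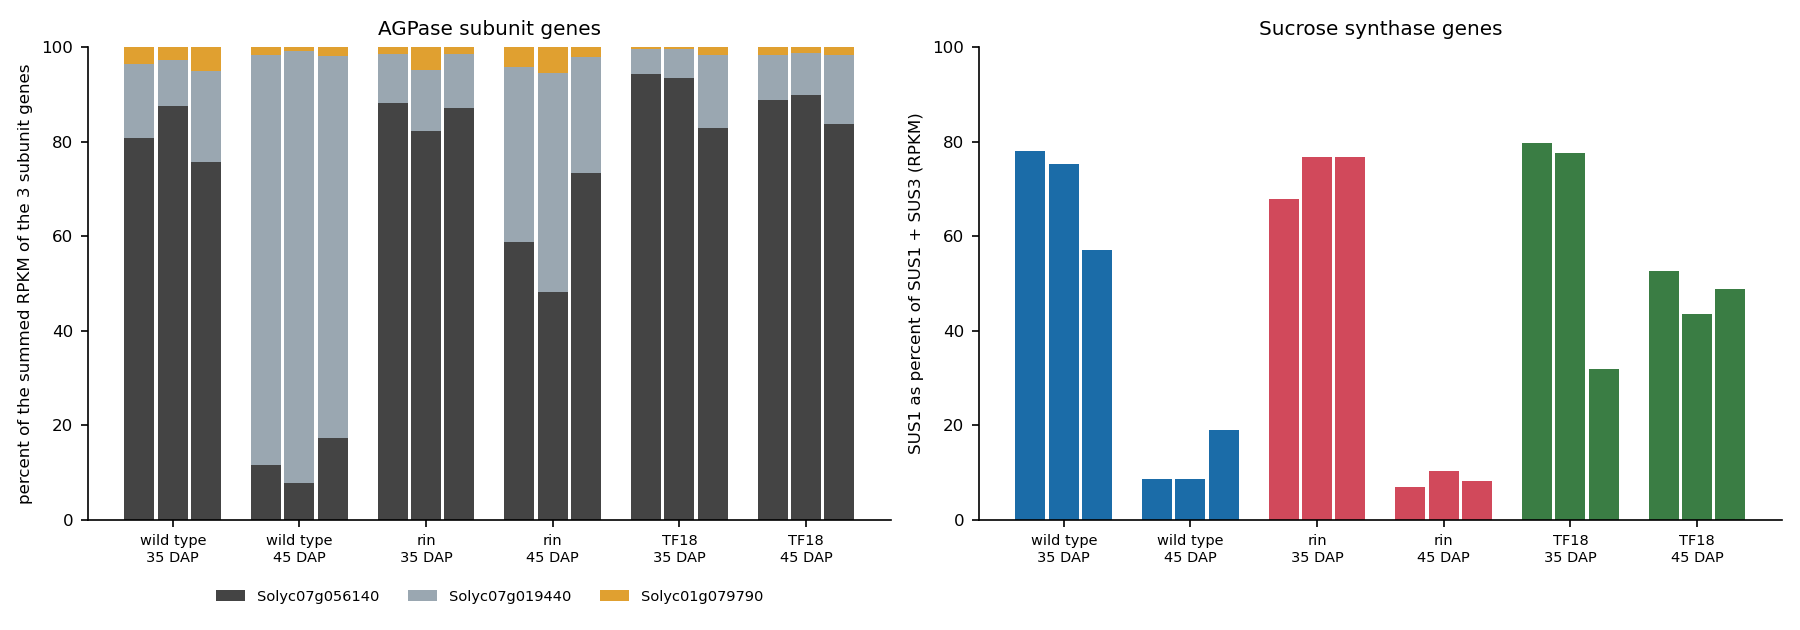
Left, the share (percent) of each AGPase subunit gene in the summed RPKM of the 3, 1 bar per library in replicate order. Right, SUS1 as percent of SUS1 plus SUS3. Solyc07g056140 holds 7.69% to 17.3% in the wild type at 45 DAP and 83.8% to 89.9% in TF18, and SUS1 holds 8.63% to 19.0% in the wild type, 7% to 10.3% in rin and 43.6% to 52.7% in TF18 at that age.

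GBSS, which makes the amylose of starch granules, had 142, 187 and 171 RPKM in the green wild type and 7.40, 8.28 and 12.3 RPKM in the pink. It fell by 4.04 (SE 0.28, limma adjusted p = 4.1e-08). In rin it had 271, 224 and 174 RPKM at 35 DAP and 105, 90.2 and 115 RPKM at 45 DAP, and it fell by 1.08 (SE 0.28, limma adjusted p = 0.01). That fall lies near the fold minimum: it was -0.93 without rin replicate 1 of 35 DAP and -0.99 without rin replicate 2 of 45 DAP. In TF18 GBSS had 482, 310 and 199 RPKM at 35 DAP and 255, 364 and 223 RPKM at 45 DAP, which overlap.

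The order at 45 DAP was as for Solyc07g056140, with no overlap between neighbours: 281 ± 73.6 (SD, n = 3) in TF18, 103 ± 12.5 (SD, n = 3) in rin and 9.32 ± 2.59 RPKM (SD, n = 3) in the wild type. GBSS was higher in rin than in wild-type fruit by 3.36 (SE 0.28, limma adjusted p = 5.2e-07), in TF18 than in the wild type by 4.77 (SE 0.28, limma adjusted p = 7.3e-09) and in TF18 than in rin by 1.41 (SE 0.28, limma adjusted p = 0.002). At 35 DAP its TF18 libraries lay above the wild type by 0.90 (SE 0.28, limma adjusted p = 0.058), short of both thresholds, and without TF18 replicate 3 it was higher by 1.22 (limma adjusted p = 0.017). With TMM-type scaling the difference was 0.76 (limma adjusted p = 0.15), and single omissions gave 0.58 to 1.22.

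Within groups, GBSS and Solyc07g056140 deviated from their group means together (r = 0.75 over 18 libraries), as did SUS1 and Solyc07g056140 (r = 0.75). TF18 replicate 3 of 35 DAP was the lowest of its group in SUS1, Solyc07g056140 and GBSS and the highest in INVINH1. Without it these values were 0.61 and 0.59, and that of SUS1 and GBSS went from 0.62 to 0.25. That of SPS and GBSS went from 0.57 to 0.77, and that of SPS and Solyc07g056140 from 0.43 to 0.58. These pairs were picked from 45. The gene outside the 10 most like Solyc07g056140, of 13858 genes compared, was Solyc04g070980 (Pearson r = 0.989 over the 18 libraries and 0.878 within groups). It fell in the wild type from 25.8 ± 11.0 (SD, n = 3) to 1.15 ± 0.613 RPKM (SD, n = 3). As it was picked by its likeness over these same libraries, that fall is not a separate observation.

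The counts of the 10 genes were read against all genes tested. In the wild type from 35 to 45 DAP 1 of the 10 rose, where 7.54% of all genes rose, and 4 fell, where 34.2% fell. Both the share that fell and the median log2 fold change, -0.77 over the 10 genes and -0.58 over all genes, were near the background. The background moved with the scaling: with TMM-type scaling 3524 genes rose and 5009 fell, in place of 1557 and 7072, and the median of all genes was -0.17. In rin 3 of the 10 fell, where 8.84% of all genes fell, and 0 rose (7.49% of all genes). Of the 10, 4 had an unadjusted limma p under 0.05, as did 40.3% of all genes. In TF18 0 of the 10 rose or fell, where 0.566% and 0.145% of all genes did, and 1 of the 10 had an unadjusted limma p under 0.05, beside 9.72% of all genes.

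**Figure D3:**
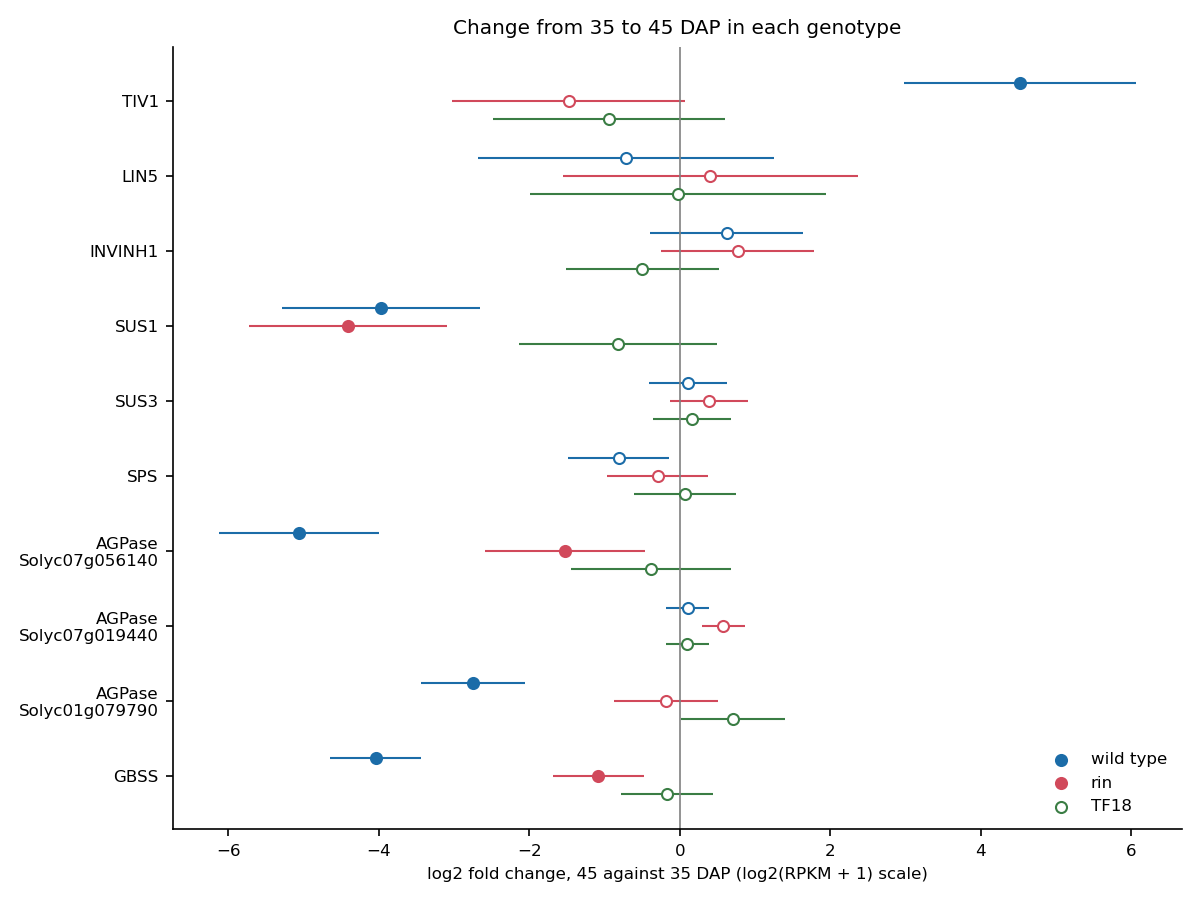
Log2 fold change from 35 to 45 DAP of each gene in the wild type, rin and TF18 (log2(RPKM + 1) scale). Points are limma estimates with 95% intervals, filled where the gene was called; TIV1 is at 4.52 in the wild type, SUS1 lies at -3.97 and -4.42 in the wild type and rin, and all TF18 points are open.

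At 35 DAP 2 calls were made among the 10 in the 3 comparisons of genotypes. Between rin and the wild type 0 were called by limma, where 0.0581% of all genes were higher and 0.0339% lower, and 0 had an unadjusted p under 0.05, beside 2.55% of all genes. Between TF18 and the wild type 1 was higher (INVINH1; 2.71% of all genes) and 1 lower (Solyc01g079790; 4.38% of all genes). In that comparison 7 of the 10 had an unadjusted limma p under 0.05, beside 25.0% of all genes. Without rin replicate 3 and TF18 replicate 3 of that age, a choice made after seeing the data, 4 of the 10 were called, where 2.08% of all genes were higher and 2.97% lower. Between TF18 and rin 0 were called by limma, where 2.89% and 2.62% of all genes were, and 3 had an unadjusted p under 0.05, beside 24.9% of all genes.

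At 45 DAP 3 of the 10 were higher in rin than in the wild type (25.9% of all genes) and 1, TIV1, was lower (3.42% of all genes). In TF18 5 were higher than in the wild type (40.3% of all genes), with SUS1 and SPS beside the 3 starch genes of rin, and 1, again TIV1, was lower (6.19% of all genes). The shares that were higher were near the background. Under TMM-type scaling rin had 2925 higher and 1782 lower genes, in place of 5344 and 707, and TF18 had 4920 and 3559, in place of 8323 and 1278. These comparisons share the 3 wild-type libraries. Tested directly, 3 were higher in TF18 than in rin (12.3% of all genes), SUS1, Solyc07g056140 and GBSS, and 0 were lower (5.16% of all genes). The median log2 difference between TF18 and rin was 0.45 over the 10 and 0.20 over all genes.

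**Figure D4:**
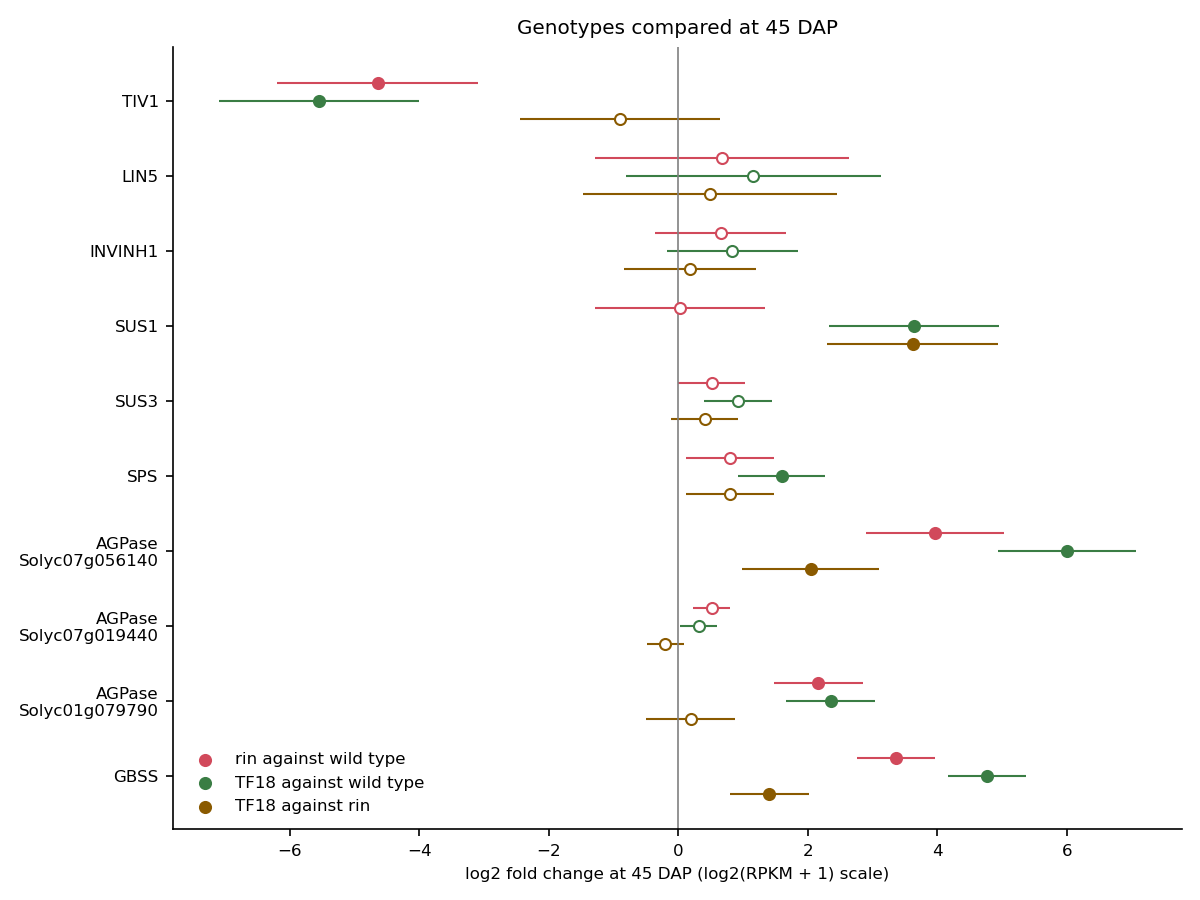
Log2 fold change between genotypes at 45 DAP for each gene (log2(RPKM + 1) scale), as limma estimates with 95% intervals, filled where called. TIV1 lies at -4.65 and -5.55 in rin and TF18 against the wild type, and SUS1 lies at 0.02 in rin and 3.64 in TF18.

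The change with age itself differed between genotypes for 4 of the 10 in rin and 5 in TF18. In rin 3 had a higher change than in the wild type (23.2% of all genes) and 1, TIV1, a lower one (2.97% of all genes). In TF18 4 had a higher change (33.6% of all genes) and TIV1 a lower one (6.03% of all genes). The shares with a higher change were near the background. With TMM-type scaling INVINH1 also had a lower change in TF18. SUS1 differed by 3.15 (limma adjusted p = 0.0085) in TF18 and by -0.44 (limma adjusted p = 0.73) in rin. Both contrasts share the wild-type libraries.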

How the data were processed

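The deposited values are RPKM, in a single table whose columns carry the library titles; 0 columns had no sample. Per the submitters' processing notes CASAVA 1.8.1 and Bowtie2 were used, for steps that are not stated. Genome build, annotation, counting program and strand setting were not given in the sources used here. Names of the 10 genes came with their choice: the files give identifiers only, and 0 of the 35802 matched the RefSeq table of assembly SLM_r2.1, so no other pathway genes were counted. The genes, lists and tests were chosen with earlier results of these data known.

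RPKM keeps whole steps, so reads and coding lengths were solved from the values (tolerance 0.02 reads). The library totals were set so that most lengths were multiples of 3, so that share is part of the fit and not a separate check. Lengths were multiples of 3 for 99.56% of 28612 genes and for all 10 genes here. On simulated data the reads of 94.99% of 28232 genes were returned exactly. Counting error is only part of the spread.

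limma 3.58.1 in R 4.3.3 was run on log2(RPKM + 1) with the means of 6 groups over 18 libraries and a variance trend, on the 20658 genes that reached 1 RPKM in 3 or more libraries; two-sided p-values were adjusted over all of them. There were 9 pairwise comparisons and 2 contrasts of changes. The fit was checked on simulated data. Fold changes of means are ratios of mean RPKM. Beyond the 10, the rule named the gene with the highest Pearson r to TIV1 and to Solyc07g056140. Same-numbered libraries deviated together beyond 0.1 in all 3 pairs between the TF18 and wild-type libraries of 35 DAP (0.284 to 0.47), 1 of 15 group pairs. The pairing comes from the data alone, and the block changed 1 call, given beside it. Alternatives were scaling, pseudocount, filter, fold minimum, groups fitted, block, library weights and leaving out libraries. Python 3.11.15, numpy 2.4.6, pandas 2.3.3 and matplotlib 3.10.9 were used.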

Additional observations from a re-analysis of the deposited data

Results flagged for a closer look

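These genes changed unequally with age in a mutant or transgenic genotype and in the wild type, as tested with an interaction contrast in limma. For rin the difference of the log2 changes was -6.00 for TIV1 (SE 1.03, limma adjusted p = 0.00078), 3.53 for the AGPase gene Solyc07g056140, 2.56 for the AGPase gene Solyc01g079790 and 2.96 for GBSS. For TF18 it was -5.46 for TIV1, 3.15 for SUS1, 4.67 for Solyc07g056140, 3.46 for Solyc01g079790 and 3.87 for GBSS (limma adjusted p = 5.7e-06). Both sets rest on the same wild-type libraries. Without rin replicate 3 of 35 DAP, the library high in TIV1, the difference for TIV1 in rin was -4.79 (limma adjusted p = 0.00012).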

How the results depend on the processing

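Of 32 called differences of the 10 genes, 27 kept their direction and call under all 11 other settings and all 18 omissions of a library, and 0 changed direction. The other 5 were SPS in TF18 at 45 DAP, INVINH1 and Solyc01g079790 in TF18 at 35 DAP, and Solyc07g056140 and GBSS with age in rin. Removing the fold minimum could lose no call. Omitting a library outside the groups compared left the fold change unchanged and could move only its error and adjusted p. Between TF18 and the wild type at 35 DAP 2 genes were called (2.71% of all genes higher and 4.38% lower). There was 1 with a pseudocount of 0.1 or 5 RPKM, without a filter on low values and with the replicate block, which changed no other call. In these settings 1.51% to 2.55% of all genes were higher and 2.27% to 3.95% lower. There were 4 with library weights (4.72% of all genes higher and 7.8% lower). Leaving out 2 libraries also gave 4 (2.08% of all genes higher and 2.97% lower). Library weights called 1 gene with age in TF18 (0 as reported) and 2 between TF18 and rin at 35 DAP (0 as reported). Calls over all genes rose with them, to 3.13% higher and 1.02% lower, and to 4.5% higher and 5.11% lower. Leaving out single libraries gave 0 to 3 calls for TF18 against the wild type at 35 DAP, 1 to 3 with age in rin, 0 to 1 with age in TF18 and 0 to 1 for TF18 against rin at 35 DAP. Over all genes these omissions gave 1.29% to 3.44% higher and 1.95% to 5.21% lower for TF18 against the wild type. With age they gave 5.73% to 7.77% higher and 7.53% to 9.22% lower in rin. In TF18 with age they gave 0.316% to 0.695% higher and 0.0583% to 0.311% lower. For TF18 against rin they gave 1.28% to 4.03% higher and 1.14% to 3.32% lower. The sign of the uncalled SUS1 difference between rin and the wild type at 45 DAP changed to -0.53 with TMM-type scaling, -0.68 with quantile normalization and -0.06 with library weights, and single omissions gave -0.18 to 0.36; SUS1 in TF18 against the wild type at 35 DAP ran from -0.06 to 1.49. The AGPase gene Solyc07g019440, uncalled between rin and the wild type at 45 DAP, was at -0.09 with TMM-type scaling, and INVINH1, uncalled between TF18 and the wild type at 45 DAP, at -0.01. That scaling also called INVINH1 with age in the wild type and in the contrast of changes for TF18, at 1.23 and -1.83, and library weights called TIV1 between TF18 and rin at 45 DAP, at -1.50. Single omissions gave uncalled wild-type changes of -0.06 to 0.26 for SUS3 and -0.03 to 0.24 for Solyc07g019440. Over all genes the wild-type change had a median of -0.58 as deposited and -0.17 with TMM-type scaling, where 3524 genes rose and 5009 fell (1557 and 7072 as deposited). For TF18 against the wild type at 45 DAP these were 4920 higher and 3559 lower (8323 and 1278), and for rin 2925 and 1782 (5344 and 707). The cause was not tested.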
